A study of Mus musculus with 8 samples.

Results

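The respiratory chain genes described here are 92 loci of the RNA-Seq count table, out of 44396 loci in all. All 10 loci placed on the mitochondrial chromosome (chrM) were taken, together with 82 nuclear loci chosen by the name of the gene, which are the numbered subunit genes of complex I (Ndufa, Ndufb, Ndufc, Ndufs and Ndufv), Sdha to Sdhd of complex II, the Uqcr genes and Cyc1 of complex III, the Cox4 to Cox8 genes of complex IV and the Atp5 genes of complex V. The names gave 36 loci of complex I, 4 of complex II, 8 of complex III, 18 of complex IV and 16 of complex V, each of them a different gene, and all 82 matched a gene of the GENCODE annotation. The rule itself uses names and positions and no measured value.

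Mouse embryonic stem cells (mESCs) carrying GFP under the Oct4 promoter were grown without feeder cells in LIF and the 2i inhibitors, in medium with 0.9% NaCl for the control or with 10 µM morphine, an opioid, for 24 h. All groups share the cell line and the reporter. Poly(A) RNA was sequenced from 2 control and 2 morphine libraries, and the repressive histone mark H3K27me3 was profiled by ChIP-Seq in another 2 control and 2 morphine libraries. The study calls the replicates of the ChIP-Seq biological. For the RNA-Seq nothing in the labels says that libraries of a condition came from separate cultures, so the p-values measure the spread between these libraries, which may be technical.

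The RNA-Seq libraries held between 25081266 and 29531096 counted reads. The stem cell identity of the samples was checked on 12 pluripotency genes, whose summed level lay between 4997 and 5269 CPM (reads of a gene after libraries were brought to equal size) in every library, against 33.9 to 37.7 CPM for 8 genes of early differentiated lineages and 18.1 to 20.6 CPM for 7 fibroblast genes, among which Col3a1 and Dcn were at or next to 0. In contrast, 4 of the 7 fibroblast genes passed the expression filter of the test below, with a median of 4.84 CPM in the controls. All 4 had log2 fold changes above 0, and none was called. Both morphine sums of the pluripotency genes (5269 and 5106 CPM) lay above both control sums (5086 and 4997 CPM). By gene, however, 5 of the 12 had log2 fold changes above 0 and 7 below 0, with a median of -0.02. Among these genes Klf2 rose (log2 fold change 0.33, edgeR adjusted p = 0.0151), and DESeq2 called 3 rises and 1 fall, but none of the 12 was called with length and GC trends removed. The part of these differences in the results that follow was not tested.

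The respiratory chain of the inner mitochondrial membrane passes electrons from NADH and succinate through complexes I, II, III and IV to oxygen, and complex V makes ATP from the proton gradient that this builds. Complex II is encoded wholly in the nucleus, whereas the other complexes join nuclear subunits to subunits made inside the organelle from the mitochondrial chromosome, which also encodes the rRNAs of the mitochondrial ribosome. Both strands of that chromosome are transcribed as long precursors that are then cut into single RNAs, and mouse embryonic stem cells are known to rely on glycolysis as well as on respiration.

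The 10 mitochondrial loci and the 82 nuclear loci took similar shares of each library. Of all counts, the mitochondrial loci held 1.79% in control replicate 1 and 1.60% in control replicate 2, compared with 1.34% and 1.503% in the morphine libraries (replicate 1 first, as in every pair of values that follows). The nuclear loci held 1.32% and 1.35% in the controls and 1.44% and 1.39% after morphine. Thus, both morphine libraries lay below both controls for the mitochondrial share and above them for the nuclear share.

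On TMM-scaled library sizes, the summed level of the nuclear members was 13398 and 13548 CPM in the controls and 14268 and 13870 CPM after morphine, which gave means of 13473 ± 106.5 and 14069 ± 281.2 CPM (SD, n = 2). The summed level of the chrM loci was 18091 and 16010 CPM in the controls and 13310 and 14980 CPM after morphine, with means of 17051 ± 1472 and 14145 ± 1181 CPM (SD, n = 2). The groups did not overlap for either sum. On the log2 scale the nuclear sum was higher by 0.06 after morphine and the chrM sum was lower, with a difference of -0.27. A sum over bulk RNA does not tell fewer mitochondrial transcripts per cell from a shift in the kinds of cells sampled.

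The ratio of the mitochondrial to the nuclear sum within a library does not depend on how whole libraries are scaled. It was 1.35 and 1.18 in the controls and 0.933 and 1.08 after morphine, so that the means of 1.27 ± 0.119 and 1.01 ± 0.104 (SD, n = 2) differed by -0.33 on the log2 scale. The highest morphine library and the lowest control library were separated by less than the SD of either group. No test was made on the sums or the ratio, since they pool loci that share their library.

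**Figure D1:**
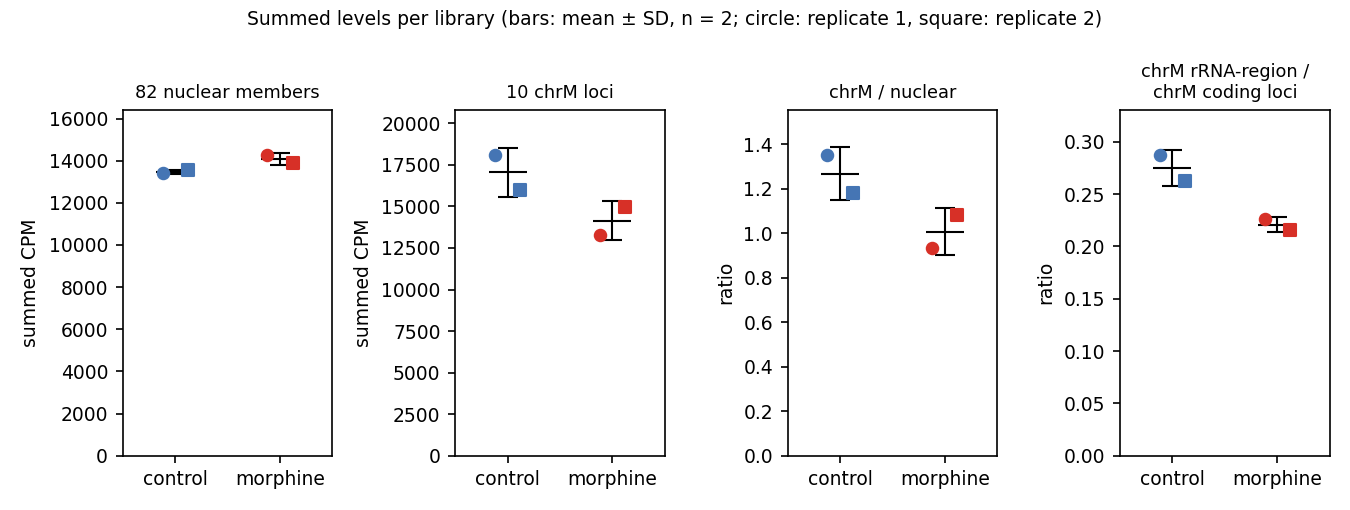
Summed CPM of the 82 nuclear members and of the 10 chrM loci, the ratio of the sums, and the ratio of the 3 rRNA-region chrM loci to the 6 coding chrM loci, each plotted per RNA-Seq library with the mean and SD of the 2 libraries per condition. The morphine libraries lie above the controls in the nuclear panel and below them in the other 3 panels, where the chrM to nuclear ratio runs from 1.35 in control replicate 1 to 0.933 in morphine replicate 1.

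The comparison of morphine with control was made for each locus with the quasi-likelihood test of edgeR, fitted over the 20350 loci that passed its expression filter, and a locus was called at an adjusted p (FDR) of at most 0.05. Of the 10 chrM loci, all of which were tested, 3 fell and none rose. Over all tested loci, 184 fell (0.904%) and 125 rose (0.614%). The 3 loci that fell lie over the rRNA genes and are called the rRNA-region loci here, although 1 of them is antisense to rRNA and 1 also holds the coding gene mt-Nd1. The 6 loci with coding genes alone and the control region did not pass the test. The median log2 fold change was -0.26 over the chrM loci, -0.63 over the rRNA-region loci and -0.19 over the 6 coding loci, against 0.00 over all tested loci. Both morphine libraries lay below both controls for 8 of the 10 chrM loci and above them for none, while 26.8% of all tested loci showed the first pattern and 26.0% the reverse. At an unadjusted p under 0.05, 8 chrM loci were lower and 0 higher after morphine, against 2200 and 1974 of the 20350 loci, and neither DESeq2 nor the exact and likelihood ratio tests of edgeR called a rise at any chrM locus. However, DESeq2 gave no adjusted p to the locus of mt-Co2 or to that of mt-Atp8 and mt-Atp6, the only chrM loci with log2 fold changes above 0.

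The first of the rRNA-region loci lay on the plus strand at chrM:70-852 (mm10) and covered most of mt-Rnr1, the 12S rRNA gene of the small mitochondrial ribosomal subunit. Its level was 134 and 100.3 CPM in the controls and 76.3 and 74.7 CPM after morphine. The log2 fold change was -0.63 with an SE of 0.10 (adjusted p = 0.0197). Each morphine library was lower than the lowest control, and the morphine libraries were closer to each other than the controls were.

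The second, at chrM:1149-3703 on the plus strand, joined mt-Rnr2, the 16S rRNA gene of the large subunit, to mt-Nd1, a membrane subunit of complex I, so that its counts cannot be divided between rRNA and mRNA. It held 3531 and 2933 CPM in the controls and 2171 and 2375 CPM after morphine, without overlap, and fell with a log2 fold change of -0.51 and an SE of 0.07 (adjusted p = 0.00993). The third ran over the same stretch on the minus strand, at chrM:1094-2681, antisense to mt-Rnr2. It held 365 and 290.2 CPM in the controls and 200.01 and 201.6 CPM after morphine (log2 fold change -0.71, SE 0.08, adjusted p = 0.00347). The antisense locus carried 10.3% and 9.90% of the count of the sense locus in the controls and 9.22% and 8.49% after morphine. The libraries were made with a stranded kit, but the sources used here do not say whether the counting used strand, so reads of the sense and the antisense locus cannot be told apart and the pair is not independent evidence.

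These calls were not independent of the libraries chosen. When each library was dropped in turn, values ran from -0.82 to -0.41 for mt-Rnr1, from -0.86 to -0.54 for the antisense locus and from -0.63 to -0.37 for the mt-Rnr2 and mt-Nd1 locus. Without morphine replicate 1, none of the 3 passed, with edgeR adjusted p-values of 0.219, 0.0752 and 0.149, respectively, while the log2 fold changes were -0.64, -0.70 and -0.44. Over all 21224 loci of that fit, 10 rose and 3 fell.

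Among the coding loci, mt-Co1, the catalytic subunit of complex IV (chrM:5327-6938), held 5641 and 5179 CPM in the controls and 4402 and 5084 CPM after morphine. The plus-strand locus at chrM:12406-15288 covers 63.6% of mt-Nd5, a complex I subunit, and all of mt-Cytb, the cytochrome b of complex III, and lies opposite to mt-Nd6, a complex I subunit gene on the minus strand. It held 5640 and 5057 CPM against 4424 and 4926 CPM. Neither passed the test, with log2 fold changes of -0.19 ± 0.06 (SE, adjusted p = 0.111) and -0.19 ± 0.06 (SE, adjusted p = 0.0912) in edgeR. In both, morphine replicate 2 lay just under control replicate 2 and morphine replicate 1 was lowest. Without control replicate 2 both were called, at -0.24 (adjusted p = 0.00368) and -0.26 (adjusted p = 0.00130), and without morphine replicate 2 as well, at -0.30 (adjusted p = 0.0218) and -0.27 (adjusted p = 0.0348). Without morphine replicate 1 they were at -0.09 and -0.12 and without control replicate 1 at -0.13 and -0.12, and neither was called.

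The complex I subunit gene mt-Nd2 (chrM:3845-4925) held 1408 and 1228 CPM in the controls and 1011 and 1149 CPM after morphine (log2 fold change -0.29, SE 0.07, adjusted p = 0.0562 in edgeR). The locus of mt-Nd4l and mt-Nd4, also complex I subunits (chrM:9876-11542), held 1333 and 1196 CPM against 998 and 1142 CPM (log2 fold change -0.24, SE 0.06, adjusted p = 0.0749 in edgeR). The control region at chrM:15440-16299, which holds the promoters and the replication origin of one strand and no annotated gene, had 31.8 and 25.7 CPM against 22.0 and 23.3 CPM (log2 fold change -0.34, SE 0.09, adjusted p = 0.0819 in edgeR). In all 3 the morphine libraries stayed below the controls, but the values missed the threshold. The exact and likelihood ratio tests called mt-Nd2 and the control region, whereas DESeq2 called neither. Without control replicate 2 all 3 were called, at -0.38, -0.31 and -0.48, and without morphine replicate 2 mt-Nd2 (-0.38) and the mt-Nd4l and mt-Nd4 locus (-0.34) were. Without morphine replicate 1 or control replicate 1 none of the 3 was called, with values from -0.30 to -0.15.

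The loci of mt-Co2 (chrM:7010-7699), the copper-binding subunit of complex IV, and of mt-Atp8 and mt-Atp6 (chrM:7766-8607), subunits of complex V, stood apart by their level. The locus of mt-Co2 had 116 and 37 counts in the controls and 76 and 78 after morphine. That of mt-Atp8 and mt-Atp6 had 127 and 32 against 103 and 71. Per length this was 3.97 ± 3.04 and 3.39 ± 2.97 CPM per kb (SD, n = 2) in the controls, whereas mt-Co1 next to them had 3356 ± 203 CPM per kb. The groups overlapped at both loci, and the log2 fold changes of 0.09 (SE 0.38) and 0.22 (SE 0.44) were not called. Without control replicate 1, both were called as higher after morphine, at 1.19 and 1.58 on the log2 scale, with the low control replicate 2 as the only control.

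The nuclear genome holds a copy of this stretch. The 3420 bases of chrM:6394-9813 were found on the minus strand of chromosome 1 (chr1:24612765-24616184 of GRCm38, the sequence of mm10) with 1 mismatch, an identity of 99.971%. Every 100-base window of the mt-Co2 locus and of the mt-Atp8 and mt-Atp6 locus occurred again exactly outside chrM, as did 68.1% of the windows of mt-Nd4l and mt-Nd4, 33.8% of those of mt-Co1 and 21.8% of those of the control region. In the other 5 chrM loci the share was at most 3.05%, including 0% for mt-Rnr1, 0.730% for mt-Rnr2 and mt-Nd1 and 1.21% for the antisense locus. The 60 bases around the edge of the copy are printed to show how sharply the sequences part, in RefSeq's GRCm38.p6 sequence, with capitals for the bases that differ.
chrM:6364-6423, plus strand: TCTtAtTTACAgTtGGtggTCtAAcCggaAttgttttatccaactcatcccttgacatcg
chr1:24616155-24616214, minus strand: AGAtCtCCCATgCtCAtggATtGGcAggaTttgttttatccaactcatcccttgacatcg

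Of these 60 bases 18 differ, all of them before the copy begins. The first 60 bases of mt-Co2, from inside the copy, read the same in both places, with 0 mismatches.
chrM:7013-7072, plus strand: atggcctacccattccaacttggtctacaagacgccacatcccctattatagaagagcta
chr1:24615506-24615565, minus strand: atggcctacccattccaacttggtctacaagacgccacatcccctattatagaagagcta

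Assembled loci of the count table also lay in the chromosome 1 copy. The locus opposite mt-Atp8 and mt-Atp6 there (BC069931, chr1:24613971-24614812, 842 bases long like its counterpart on chrM) had 296 and 40 counts in the controls and 280 and 213 after morphine. Another locus without a gene name in the copy (chr1:24615635-24616184) had 245 and 59 against 322 and 201. Control replicate 2 was lowest at both of these and at both low chrM loci. How reads with several equal placements were treated is not stated in the sources used here, so the values of mt-Co2, mt-Atp8 and mt-Atp6 are uncertain and those of mt-Nd4 and mt-Co1 partly so. Genes of chrM between these loci, such as mt-Co3 and mt-Nd3, have no locus of their own among the counted loci.

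**Figure D2:**
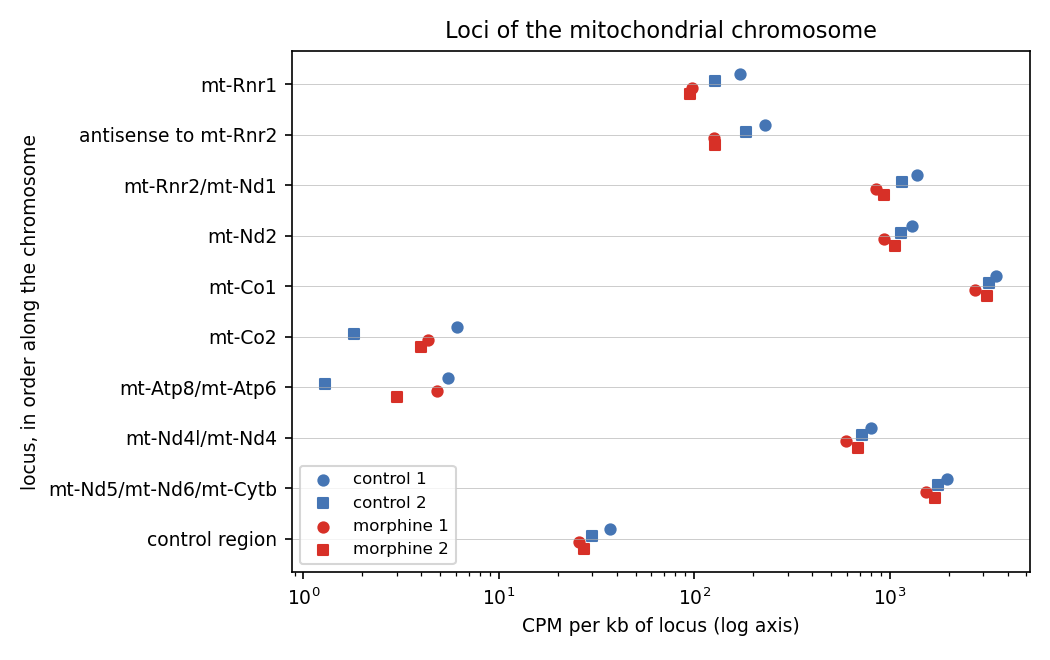
CPM per kb of locus (log axis) in each RNA-Seq library for the 10 loci of the mitochondrial chromosome, in order along it, with blue for control and red for morphine and a circle or a square for replicate 1 or 2. Both red points lie left of both blue points at 8 loci, and the loci of mt-Co2 and of mt-Atp8 and mt-Atp6, at 1.29 to 6.12 CPM per kb, lie far below their neighbours.

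The chrM loci were also low in GC content, from 35.2 to 39.8%, against a median of 49.7% over all tested loci. Across the tested loci, fold changes were higher where the locus was richer in GC (Spearman rho = 0.485 over loci, which share their libraries). When trends with length and GC content were removed in edgeR, the same 3 rRNA-region loci were called, with log2 fold changes of -0.40 for mt-Rnr1 (adjusted p = 0.0184), -0.50 for the antisense locus (adjusted p = 0.000698) and -0.33 for the mt-Rnr2 and mt-Nd1 locus (adjusted p = 0.00275). In that fit 112 of 16785 loci fell (0.667%) and 145 rose (0.864%). The coding loci mt-Nd2, mt-Co1, mt-Nd4l with mt-Nd4, and mt-Nd5 with mt-Nd6 and mt-Cytb were then at -0.08, -0.05, -0.06 and -0.03 on the log2 scale, and the control region at -0.14. The median over the 10 chrM loci moved from -0.26 in the fit of all tested loci to -0.07. The fit with trends removed covered annotated loci only. Without trend removal, edgeR called 7 chrM falls over those annotated loci, in a fit chosen after seeing the data. Over all 16785 of them it called 566 falls and 412 rises. The part of GC content in these values was not tested.

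Within the chromosome, the rRNA-region loci were lower relative to the coding loci after morphine. The ratio of their sums was 0.287 and 0.263 in the controls and 0.226 and 0.215 after morphine, or 0.275 ± 0.0175 and 0.221 ± 0.00730 (SD, n = 2), and the log2 difference was -0.32. The groups did not overlap. Relative to the nuclear sum, the log2 difference was -0.59 for the rRNA-region loci and -0.27 for the coding loci. The sum of the rRNA-region loci also holds mt-Nd1 and the antisense locus. The libraries were poly(A)-selected, and mitochondrial rRNAs carry only short adenine tails.

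**Figure D3:**
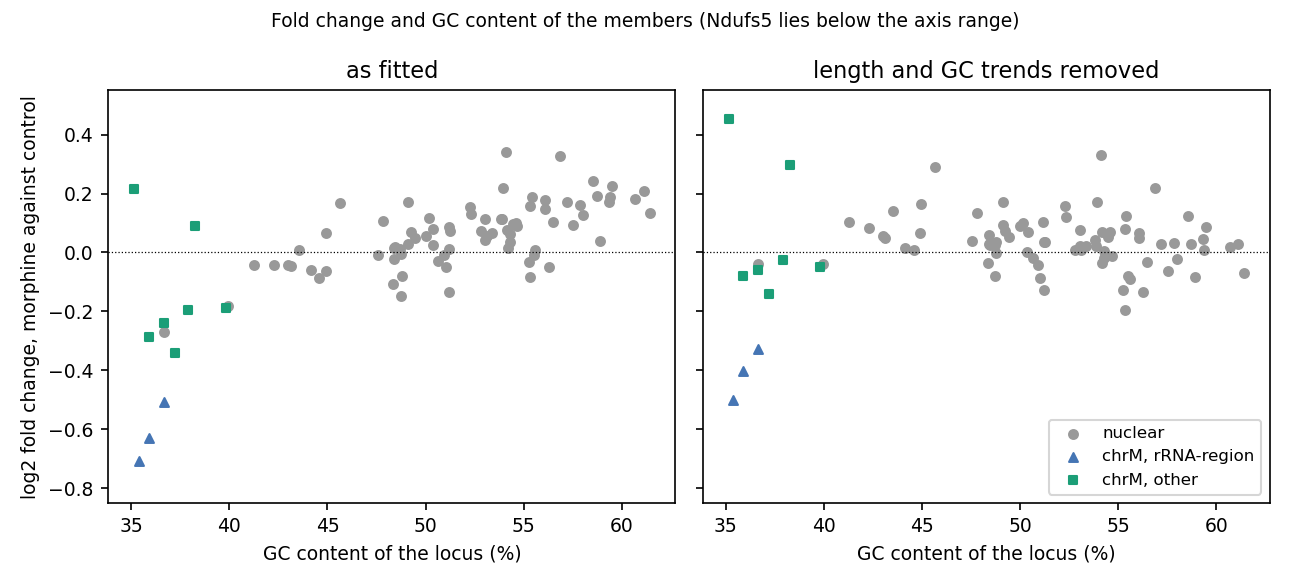
Log2 fold change (morphine against control) against the GC content in percent of each tested member, as fitted by edgeR on the left and with length and GC trends removed on the right, with Ndufs5 at -1.77 below the axis in both. The blue triangles of the 3 rRNA-region loci stay lowest among the plotted points, from -0.71 to -0.51 on the left and from -0.50 to -0.33 on the right, while the rho of the grey nuclear points is 0.637 on the left and -0.192 on the right.

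Of the 82 nuclear members, 80 passed the expression filter and were tested. One rose, Cox6a1, and 0 fell. The median log2 fold change was 0.06, and 56 of 80 were above 0. Both morphine libraries lay above both controls for 36 of the 80 (26.0% of all tested loci did so) and below them for 5 (26.8% of all). At an unadjusted p under 0.05, 23 were higher and 1 was lower after morphine, against 1974 and 2200 of the 20350 loci. The exact and likelihood ratio tests of edgeR each called 3 rises and 1 fall among the 80, while over all tested loci the exact test called 1.58% as higher and 2.3% as lower and the likelihood ratio test 1.71% and 2.42%. DESeq2 called 4 rises and 0 falls but gave Ndufs5 no adjusted p, and over the 8616 loci to which it gave one it called 2.58% as higher and 4.0% as lower. The nuclear members were richer in GC than the chrM loci, with a median of 52.6%, and their fold changes ran with GC content over the 80 genes (Spearman rho = 0.637). With length and GC trends removed, the rho was -0.192, the median log2 fold change was 0.03, and 57 of 80 were above 0. In that fit Ndufb9, Cox6b1 and Cox7c rose, Ndufs5 fell, and Cox6a1 did not pass.

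Cox6a1, the widely expressed form of a small regulatory subunit of complex IV (chr5:115345654-115348955, minus strand), held 222 and 231 CPM in the controls and 278 and 258 CPM after morphine. The log2 fold change was 0.24 with an SE of 0.05 (edgeR adjusted p = 0.0450). Both morphine libraries lay above both controls. With length and GC trends removed the value was 0.13 (adjusted p = 0.0902), without control replicate 1 it was 0.21 (adjusted p = 0.0825) and without morphine replicate 1 it was 0.19 (adjusted p = 0.405).

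**Figure D4:**
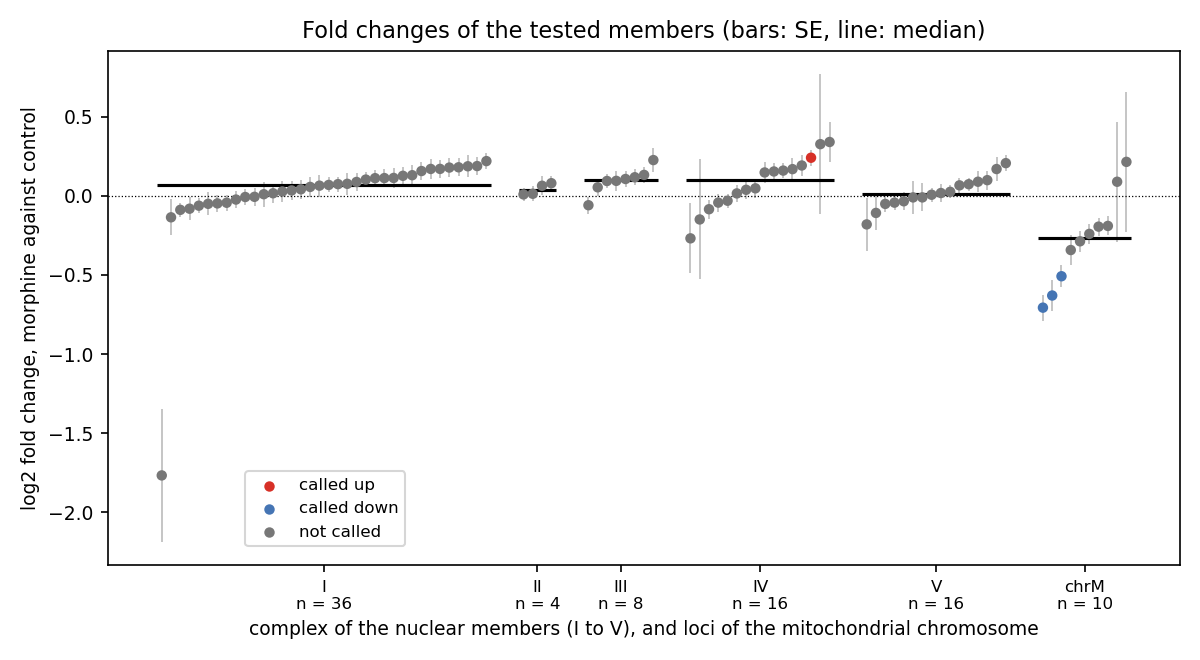
Log2 fold change of morphine against control with its SE for each tested member, sorted within complexes I to V and within chrM, with a line at the median of each group. Medians of the nuclear complexes lie between 0.01 and 0.10 and that of chrM at -0.26. The red point is Cox6a1, the blue points are the 3 rRNA-region loci, and the lowest grey point is Ndufs5 at -1.77.

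Complex I, the NADH dehydrogenase, was represented by 36 nuclear subunits. No subunit passed the test, and 25 of them were above 0, with a median log2 value of 0.07. At an unadjusted p under 0.05, 10 of the 36 were higher and 1 lower. The shares over all 20350 loci at this p were 9.70% higher and 10.8% lower, and they are the background of the same counts in the other complexes and lists. The exact and likelihood ratio tests called Ndufb9 and Ndufs5 (1.58% of all loci higher and 2.3% lower in the exact test). Ndufb9, an accessory subunit, had the highest log2 fold change of the complex at 0.22 (SE 0.05, edgeR adjusted p = 0.0526), from 111 and 115 CPM in the controls to 133 and 130 CPM after morphine. DESeq2 called it as well.

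Ndufs5, an accessory subunit on the side of the intermembrane space (chr4:123712710-123718186, minus strand), had the lowest value of all members. Its counts were 100 and 139 in the controls and 54 and 11 after morphine, which gave a log2 fold change of -1.77 with an SE of 0.42 (edgeR adjusted p = 0.0564). The groups did not overlap, but the morphine libraries differed from each other by more than the controls did. Without morphine replicate 2 the log2 fold change was -0.97 (adjusted p = 0.0660) and without morphine replicate 1 it was -3.41 (adjusted p = 0.00836). At 5.96 ± 1.09 CPM per kb (SD, n = 2) in the controls, it was also the lowest of complex I, and 37.98% of its 100-base windows occur again exactly elsewhere in the genome.

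The 7 nuclear core subunits of complex I form the arm that takes electrons from NADH to ubiquinone, and most of them carry its flavin or iron-sulfur clusters. None was called, or reached the threshold with DESeq2 or the other edgeR tests, and 3 were higher at an unadjusted p under 0.05. Morphine lay above control without overlap for 5 of the 7 (26.0% of all tested loci did so), among which were Ndufs7 (52.4 and 53.7 against 61.6 and 58.8 CPM, log2 fold change 0.18), Ndufs8 (0.17) and Ndufv1 (0.10). Ndufs1, the largest core subunit, lay below control, from 259.8 and 260.9 CPM to 239 and 250.5 CPM (log2 fold change -0.09, edgeR adjusted p = 0.302). Ndufv2 overlapped (log2 fold change -0.05). With length and GC trends removed, all 7 lay between -0.03 and 0.05. Ndufa4, named for complex I but since assigned to complex IV, had the highest level per length of the Nduf genes, at 486 ± 18.2 CPM per kb (SD, n = 2) in the controls and 466 CPM per kb after morphine, with overlap (log2 fold change -0.06).

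Complex II oxidizes succinate and is the only complex without a mitochondrially encoded subunit. Its 4 genes had log2 fold changes between 0.01 and 0.08, and none reached an unadjusted p under 0.05. Sdhc, a membrane anchor, was highest at 0.08 (139.1 and 139.3 against 148 and 146 CPM). Sdha, the flavoprotein, was lowest at 0.01 (405 and 402 against 407 and 406 CPM), and Sdhd, the other anchor, had the highest level per length, at 131 ± 1.44 CPM per kb (SD, n = 2) in the controls and 132 CPM per kb after morphine. The SEs were 0.04 to 0.06, and none of the tools called a gene of this complex. The order turned with length and GC trends removed, where Sdha was highest at 0.14 (adjusted p = 0.0535 in edgeR) and Sdhb lowest at -0.02.

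Complex III, the cytochrome bc1 complex, had 8 nuclear members with a median log2 fold change of 0.10. None was called with any of the 4 tools, and 4 were higher at an unadjusted p under 0.05. Uqcr11, a small accessory subunit, had the highest value at 0.23 (SE 0.07, edgeR adjusted p = 0.121), from 73.9 and 75.9 CPM to 95.4 and 79.97 CPM. Without morphine replicate 1 this was 0.09 (adjusted p = 0.668), whereas without control replicate 2 it was 0.25 (adjusted p = 0.0246) and without morphine replicate 2 it was 0.35 (adjusted p = 0.0317). With length and GC trends removed, Uqcr11 was at 0.085 (adjusted p = 0.476 in edgeR) and Uqcrfs1 was highest at 0.13. Without that removal Uqcrc2, a core subunit, was the only one below 0, at -0.06, with overlapping libraries. Uqcrh, the hinge subunit, had the highest level per length at 228 ± 8.39 CPM per kb (SD, n = 2) in the controls and 236 CPM per kb after morphine, and its libraries overlapped (log2 fold change 0.05).

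Complex V, the ATP synthase, had 16 members, with a median log2 fold change of 0.01 and 9 above 0. None was called, 2 were higher and 0 lower at an unadjusted p under 0.05, and the exact and likelihood ratio tests and DESeq2 each called Atp5d. Atp5d, a subunit of the central stalk, had 171 and 180 CPM in the controls and 210.1 and 196 CPM after morphine (log2 fold change 0.21, SE 0.05, edgeR adjusted p = 0.0655), and 0.03 once length and GC trends were removed. Atp5s, coupling factor B, was lowest at -0.18 with overlapping libraries of 3.32 to 4.59 CPM. Atp5b, the catalytic beta subunit, had the highest level per length of all nuclear members, at 1456 ± 67.2 CPM per kb (SD, n = 2) in the controls and 1533 CPM per kb after morphine. This was 2647 and 2825 CPM against 2889 and 2871 CPM, without overlap (log2 fold change 0.07, edgeR adjusted p = 0.334).

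Complex IV, cytochrome c oxidase, had 18 nuclear members, of which 16 were tested. Cox6a1 alone rose, 7 were higher at an unadjusted p under 0.05, and the median log2 fold change was 0.10. Several of its subunits exist as a widely expressed form and a form restricted to tissues such as muscle, lung or testis. The 6 widely expressed forms lay between 167 and 909 CPM per kb over the libraries, and Cox4i1 was highest with 781 ± 18.3 CPM per kb (SD, n = 2) in the controls. It held 587 and 606 CPM in the controls and 695 and 639 CPM after morphine, which DESeq2 called (adjusted p = 0.0412) and the quasi-likelihood test did not (log2 fold change 0.16, SE 0.05, adjusted p = 0.0975), and was at 0.03 with length and GC trends removed. The quasi-likelihood test called Cox4i1 without control replicate 2 (0.19, adjusted p = 0.0463) and without morphine replicate 2 (0.22, adjusted p = 0.0422), but not without morphine replicate 1 (0.10, adjusted p = 0.553). Cox6b1 had 182 and 173 CPM against 203 and 192 CPM (0.15). Cox8a, Cox7a2 and Cox7b overlapped, at 0.04, 0.02 and -0.04.

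The tissue-restricted forms were lower than their widely expressed counterparts in these stem cells. Cox8b of muscle had 0 CPM in 3 libraries and 0.0710 CPM in morphine replicate 2, and Cox6a2 of muscle lay between 0.102 and 0.249 CPM. Both failed the expression filter. Cox4i2 of lung lay between 0.272 and 0.692 CPM, Cox8c of testis between 0.395 and 0.639 CPM and Cox7b2 of testis between 1.67 and 2.28 CPM. Cox7a1 of muscle and Cox6b2 of testis were the highest of these forms, and Cox6b2 lay above the control median of 8.26 CPM over all tested loci. Cox7a1 had 6.66 and 5.61 CPM in the controls and 8.14 and 7.39 CPM after morphine, the largest log2 fold change above 0 in the complex (0.34, SE 0.13, edgeR adjusted p = 0.164). Cox6b2 had 28.5 and 27.1 against 32.02 and 31.5 CPM (0.19, SE 0.07, adjusted p = 0.137). The lowest value of the complex was that of Cox7b2, at -0.27 with an SE of 0.22.

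Outside the name rule, Ndufa4l2 lay between 0.213 and 0.510 CPM and the testis cytochrome c gene Cyct between 3.23 and 4.44 CPM, against 20.2 to 22.0 CPM for the somatic Cycs (log2 fold change 0.11). Of the 9 tissue-restricted forms 7 were tested and none was called by any of the tools, with 2 higher at an unadjusted p under 0.05. Among the forms that are members, DESeq2 gave an adjusted p to Cox6b2 (0.260) but none to Cox4i2, Cox8c, Cox7b2 and Cox7a1. Of the 8 counterparts, Cox6a1 alone passed the quasi-likelihood test.

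**Figure D5:**
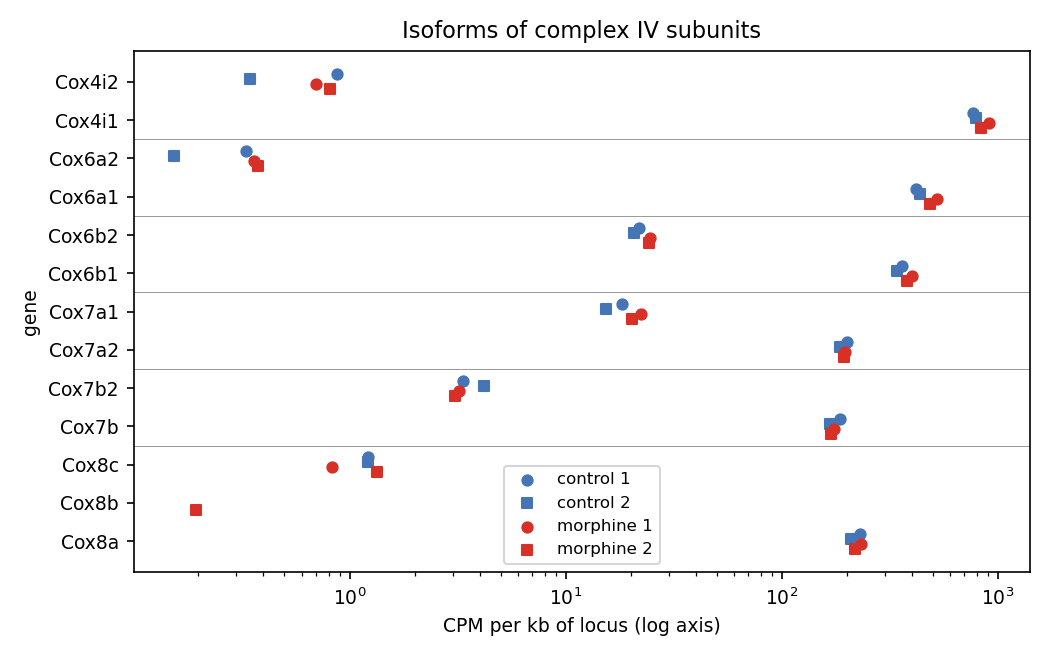
CPM per kb of locus (log axis) in each RNA-Seq library for 13 genes of complex IV, with each tissue-restricted form above its widely expressed counterpart and values of 0 not drawn. The restricted forms of Cox4, Cox6a, Cox7b and Cox8 lie under 5 CPM per kb, those of Cox6b and Cox7a near 20, and all counterparts above 150.

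Some nuclear members had exact copies elsewhere in the genome as well, and the part of these copies in their counts was not tested. In 10 of the 82, at least 25% of the 100-base windows of the transcribed sequence occurred again outside the gene, and in 63 of them none did. The share was highest for Cox7c (86.0%), Ndufb4 (85.3%) and Atp5l (83.1%). The 10 genes had a median level of 46.5 CPM per kb in the controls, against 112 CPM per kb for the other 72. For Cox6a1 the share was 1.61%. In windows of 50 bases copies were more common, with shares of 13.2% for Cox6a1 and 51.15% for Ndufs5. On chrM those shares were 53.2% for mt-Co1 and 7.95% for mt-Nd2.

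The members were set beside other genes that serve the same organelle. Of 44 assembly factors of the respiratory complexes none was called, the median log2 fold change was 0.02, and 1 was higher and 6 were lower at an unadjusted p under 0.05. The exact and likelihood ratio tests, which called 2.3% and 2.42% of all loci as lower, called Cox20 and Ttc19, which act in the assembly of complexes IV and III, as lower (-0.33 and -0.28, adjusted p = 0.0541 and 0.0582 in the quasi-likelihood test). Of 30 genes for replication, transcription and RNA processing of mitochondrial DNA, none was called and the median was -0.04, with 2 higher and 3 lower at an unadjusted p under 0.05. Fastkd2, an RNA-binding protein of mitochondrial RNA granules that is needed for 16S rRNA, was called as lower by DESeq2 and by the exact and likelihood ratio tests (112 and 103 against 82.6 and 95.1 CPM, log2 fold change -0.27, adjusted p = 0.0693 in the quasi-likelihood test). Of 17 genes of the citrate cycle and pyruvate dehydrogenase, none was called by any tool, the median was -0.01, and 1 was higher and 1 lower at an unadjusted p under 0.05.

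Among 11 nuclear regulators of respiratory genes, of which 10 were tested with a median log2 fold change of -0.02, Creb1, a cAMP-responsive transcription factor, fell from 43.5 and 42.0 CPM to 33.0 and 34.1 CPM (log2 fold change -0.35, SE 0.06, edgeR adjusted p = 0.0275), and was at -0.16 (adjusted p = 0.163) without length and GC trends. DESeq2 also called Gabpa, the DNA-binding part of an ETS factor, as lower (log2 fold change -0.17), and the exact and likelihood ratio tests called Esrra, an orphan nuclear receptor, as higher (0.30). With length and GC trends removed, no gene was called among the assembly factors, the genes for mitochondrial DNA and RNA and the regulators, Cox20, Ttc19, Fastkd2, Creb1, Gabpa and Esrra included. Of 71 mitochondrial ribosomal proteins, Mrpl28 rose (82.7 and 91.0 against 112 and 104 CPM, log2 fold change 0.31, adjusted p = 0.0405), but not with length and GC trends removed (0.16, adjusted p = 0.0958), and the median was 0.05, with 52 above 0. At an unadjusted p under 0.05, 19 were higher and 1 was lower. The exact and likelihood ratio tests each called 3 rises and 0 falls among the 71 (1.58% and 2.3% of all loci for the exact test). Of 77 cytosolic ribosomal proteins, which belong to no mitochondrial process, Rps23 rose (4.55 on the log2 scale) and Rpl30 fell (-1.08), and the median was 0.07, with 55 above 0. In this list DESeq2 called 10 rises and 0 falls (2.58% and 4.0% of all loci with its adjusted p), and the exact and likelihood ratio tests 5 rises and 3 falls (1.58% and 2.3% of all loci for the exact test). The medians of both kinds of ribosomal protein genes thus lay close to the 0.06 of the nuclear respiratory genes, and the difference was not tested.

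The 5′ ends of the nuclear genes were examined for H3K27me3 and for short sequence motifs. A peak lay within 1 kb of a start site for 3 and 3 of the 82 genes in the control ChIP-Seq libraries and for 4 and 5 in the morphine libraries. Over 55450 annotated genes the share with a peak was 9.17% and 9.83% in the controls and 9.14% and 9.97% after morphine. Over the 21899 genes with a protein-coding transcript it was 16.4% and 16.9% in the controls and 16.8% and 17.5% after morphine, while the counts of members stayed the same. With a promoter of 3 kb, 7 and 6 members had a peak in the controls and 6 and 7 after morphine. The shares over the 55450 genes were then 11.4% and 12.5% in the controls and 10.8% and 12.35% after morphine. With a score of at least 100 there were 1 and 3 members in the controls and 0 and 2 after morphine, beside 5.15% and 5.72% against 4.67% and 5.56% of all genes. Thus, the order of the conditions in the 1 kb counts did not hold. The peak lists give the caller's score for each peak (a log10 scale of its p-value, higher for a smaller p, and never below 50 here) and no read counts, so the scores below are given as values and were not tested.

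Ndufa8, Cox4i2 and Cox8c carried a peak in all 4 libraries. At Cox4i2, the peak covered the start site, with scores of 89.6 and 140.8 in the controls and 82.5 and 138 after morphine, and at Cox8c the scores were 76.0 and 199.97 against 83.7 and 99.5. Both are tissue-restricted forms at under 1 CPM. Ndufa8, an accessory subunit of complex I, was expressed at 51.5 and 51.8 CPM in the controls and 56.4 and 55.3 CPM after morphine (log2 fold change 0.11, edgeR adjusted p = 0.285), and its peaks (scores 114 and 201 against 64.6 and 103) began upstream of its start, on the side of Morn5, a gene transcribed the other way.

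Uqcrh had a peak in both morphine libraries (scores 97.1 and 61.2) and in neither control. These peaks lay upstream of the gene, at chr4:116075916-116077746 and chr4:116075882-116077526, inside Lrrc41, which is transcribed away from it. With a promoter of 3 kb, control replicate 2 had a peak there too (score 58.2). Uqcrq, a small subunit of complex III, had a peak in morphine replicate 2 alone (score 58.3, close to the lowest score of the lists), and its level was 190 and 186 CPM against 212 and 195 CPM (log2 fold change 0.12). The RNA of neither gene was called.

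On chrM, a single peak was listed, in control replicate 1, over chrM:5-7447 with a score of 133, and the other 3 lists held none. Mitochondrial DNA carries no histones.

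RefSeq promoter sequences (250 bases before to 50 after the start, GRCm38.p6) were matched for 68 of the 82 nuclear genes. A core of the site of NRF1, a transcription factor known for respiratory genes, written CGCATGCG, was found on either strand in 9 of the 68 (13.2%), namely Atp5g2, Atp5j, Atp5k, Atp5l, Cox6a1, Ndufa8, Ndufa11, Uqcr11 and Uqcrc1, against 2.07% of 27025 genes with a promoter sequence. A core for YY1 (AAGATGGCG) was in 7 (10.3% against 1.64%), an ETS core as bound by GABPA (CCGGAAGT) in 5 (7.35% against 4.31%) and a TATA box (TATAAA) in 7 (10.3% against 15.7%). The promoters of the members had a median GC content of 57.8%, against 52.8% of all. A match is a description of the letters and not a binding site.

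Promoters of 4 members are printed, with the motif letters in capitals: Cox6a1 as the gene that rose, Ndufa8 and Uqcrh as genes with peaks nearby and Uqcr11 as the highest value of complex III, with an NRF1 and an ETS core. The first 3 hold an NRF1, an NRF1 and an ETS core, respectively. All 4 are on the minus strand of GRCm38.p6.
Cox6a1, chr5:115348909-115349208: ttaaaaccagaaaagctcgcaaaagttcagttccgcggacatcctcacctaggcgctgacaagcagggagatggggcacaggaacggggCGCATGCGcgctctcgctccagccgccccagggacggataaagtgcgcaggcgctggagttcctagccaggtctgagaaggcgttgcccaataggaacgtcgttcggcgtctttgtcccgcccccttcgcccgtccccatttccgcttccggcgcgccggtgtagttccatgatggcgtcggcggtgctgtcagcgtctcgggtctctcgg
Ndufa8, chr2:36049289-36049588: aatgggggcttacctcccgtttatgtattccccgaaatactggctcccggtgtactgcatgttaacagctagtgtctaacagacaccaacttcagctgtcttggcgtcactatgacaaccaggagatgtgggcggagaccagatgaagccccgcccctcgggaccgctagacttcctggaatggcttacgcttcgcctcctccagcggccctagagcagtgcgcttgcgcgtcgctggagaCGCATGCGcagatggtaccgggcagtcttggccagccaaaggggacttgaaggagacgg
Uqcrh, chr4:116075021-116075320: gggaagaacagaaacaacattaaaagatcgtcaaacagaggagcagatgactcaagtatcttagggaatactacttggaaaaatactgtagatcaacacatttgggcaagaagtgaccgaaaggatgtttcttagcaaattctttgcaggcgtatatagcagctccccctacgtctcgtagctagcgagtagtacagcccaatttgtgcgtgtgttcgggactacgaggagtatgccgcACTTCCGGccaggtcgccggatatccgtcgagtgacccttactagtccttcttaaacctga
Uqcr11, chr10:80406772-80407071: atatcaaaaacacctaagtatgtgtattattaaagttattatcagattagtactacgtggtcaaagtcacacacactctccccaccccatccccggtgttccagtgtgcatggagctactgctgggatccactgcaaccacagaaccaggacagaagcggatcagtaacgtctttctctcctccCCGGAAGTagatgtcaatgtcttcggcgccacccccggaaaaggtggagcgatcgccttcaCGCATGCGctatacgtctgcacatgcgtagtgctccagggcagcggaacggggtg
The ETS core of Uqcrh is read on the opposite strand, while that of Uqcr11 is read on the strand printed. The NRF1 core reads the same on both strands. In Uqcr11 its first base is at -5 from the start, so that it runs across the start, and the first base of the ETS core is at -66.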

How the data were processed

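For RNA-Seq, the authors aligned stranded poly(A) reads to mm10 with HISAT2 (2.1.0), assembled transcripts with StringTie (1.3.6) on a UCSC annotation and deposited raw counts per locus from featureCounts (1.6.4), with versions from the submitters' processing notes. The strand setting and the treatment of reads with several placements are not given in the sources used here. For ChIP-Seq, the authors aligned reads with Bowtie2 and called peaks per library with MACS at a p-value of 1e-05, and the deposited score of a peak is a log10 scale of its p-value, where 50 is the lowest.

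The counts of all loci were filtered by filterByExpr, TMM-scaled and fitted in edgeR 4.0.16 (R 4.3.3), whose quasi-likelihood F-test gave the p-values, with Benjamini-Hochberg adjustment over all tested loci. CPM was divided by exonic length for levels between genes. A locus took its most frequent gene name, with entries of NA left out, which changed 7 members. Where several loci bear the name of a listed gene outside the members, the one with the most counts was used. Length and GC trends were removed by natural splines over annotated loci. Exact copies were searched in 50-base and 100-base windows over GRCm38.p6, in Python 3.11.15. The quasi-likelihood fit was also run on simulated counts, and the outcome is not reported here.

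The members and lists were chosen with earlier results of these data known. The genes named are every chrM locus, every called nuclear member, for each complex the highest and lowest fold change and the highest level per length, the isoforms and their counterparts, the complex I core, members with a promoter peak, and called members of the related lists; Cox20, Ttc19, Fastkd2, Gabpa, Esrra, Cox7c, Ndufb4, Atp5l and the genes with an NRF1 core were named after their values were seen. The values of 1 gene that this rule names are not reported here. Alternatives were another test (edgeR exact and likelihood ratio, DESeq2 1.42.0), scaling, filter, replicate term, trend removal, an FDR of 0.01, each library left out, a 3 kb promoter, a score of at least 100 and protein-coding transcripts. Same-numbered libraries did not deviate together (correlation across loci 0.0264), and no label ties the numbers to a shared batch.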

Additional observations from a re-analysis of the deposited data

How the results depend on the processing

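The nuclear sum, the chrM sum and their ratio kept their direction under other library scalings, a mean of log2 CPM and each library left out. Scaling cannot move the ratio, and removal of length and GC trends was not run on the sums or the ratio. With 1 library left out, values ran from 0.04 to 0.08 for the nuclear sum, from -0.36 to -0.18 for the chrM sum and from -0.44 to -0.23 for their ratio. Counts of calls moved more, and the cause was not tested. Against 1 nuclear rise, the exact test, the likelihood ratio test, total counts, removal of length and GC trends, and annotated loci with no trend removed (chosen after seeing the data) each gave 3, DESeq2 4, library sizes from loci outside chrM 2, no filter on low counts 7 and an FDR of 0.01 gave 0. With 1 library left out it ran from 0 to 6. Against 0 nuclear falls, each of the exact and likelihood ratio tests, total counts, library sizes outside chrM, no filter, the length trend, length and GC trends, and annotated loci gave 1, and 0 to 2 with 1 library left out. Against 3 falls on chrM, the exact and likelihood ratio tests and the length trend gave 5, annotated loci 7, no filter 8, and 0 to 8 with 1 library left out. That range was 0 without morphine replicate 1, 3 without control replicate 1, 7 without morphine replicate 2 and 8 without control replicate 2. Rises on chrM ran from 0 to 2, the 2 being mt-Co2 with mt-Atp8 and mt-Atp6 without control replicate 1. A fit that left an arm with 1 library took its spread from the other arm, so the lone library is assumed to vary alike.

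On chrM, an FDR of 0.01 gave 2 falls, and total counts and library sizes from loci outside chrM each gave 4. The replicate block (same-numbered libraries paired) gave 4 nuclear rises, 1 nuclear fall and 8 falls on chrM, although the numbers are not known to pair the libraries. Over all loci the block called 439 rises and 689 falls of 20350, and no filter on low counts 615 and 1042 of 30482, against 125 and 184 of 20350. Total counts gave 281 rises and 234 falls, library sizes outside chrM 186 and 289, and the length trend 159 and 162, each of 20350. Annotated loci with no trend removed gave 412 and 566 of 16785. With 1 library left out, rises over all loci ran from 10 to 663 and falls from 3 to 956.

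Directions of uncalled members also turned. With length and GC trends removed, Ndufa4 was at 0.066, Uqcrc2 at 0.017, Cox7b at 0.082, Ndufs1 at 0.010, Ndufv2 at 0.048, Ndufv1 at -0.033 and Cox8a at -0.082, and with the length trend removed Sdhd was at -0.018. With 1 library left out, values ran from -0.20 to 1.12 for Cox4i2, from -0.12 to 0.0023 for Uqcrc2, from -0.0047 to 0.032 for Sdhd, from -0.037 to 0.072 for Cox7a2, from -0.54 to 1.19 for mt-Co2, from -0.49 to 1.58 for mt-Atp8 and mt-Atp6, from -0.11 to 0.035 for Cox7b, from -0.55 to 0.14 for Cox8c, from -0.10 to 0.011 for Ndufv2 and from -0.019 to 0.10 for Cox8a.

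With a promoter of 3 kb, 7 and 6 nuclear members had a peak in the controls and 6 and 7 in the morphine libraries. There were 5 in both controls (9.68% of all genes) and 9 in any library (16.8% of all genes). With a score of at least 100, there were 1 and 3 in the controls and 0 and 2 in the morphine libraries. At that score 1 had a peak in both controls, 0 in both morphine libraries and 3 in any, beside 4.28%, 3.93% and 7.79% of all genes. Counting error is wider for loci with few reads, such as mt-Co2, Cox4i2, Cox8c and Ndufs5.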
